A study of Mus musculus with 24 samples.

Results

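The metallothionein genes measured here are Mt1, Mt2 and Mt3, found by their symbols among the 55421 gene identifiers of the count table, so 3 members of 55421 genes. They were chosen by the response of Mt1 and Mt2 to lipopolysaccharide (LPS, a component of the bacterial outer membrane) measured in these libraries, with Mt3 as their contrast. Every LPS value of the 3 genes below is therefore a description and carries no test. The data are tags counted near the 3′ end of transcripts in the left brain hemisphere of 24 mice aged 3 months, 1 library per mouse. There were 4 groups of 6 mice. They were Nox2 knockout mice given LPS, wild type mice given LPS, Nox2 knockout mice given phosphate-buffered saline (PBS) and wild type mice given PBS. Injections were daily into the peritoneum on 4 days, with 100 µl of PBS or of LPS at 1 µg per g body weight per day. All 24 libraries carry the strain label C57BL/6J. No allele, breeding scheme or sex is given in the sources used here, and the knockout is not restricted to a cell type by any label. Each hemisphere was homogenised whole, so in these data fewer cells of a type and less RNA per cell cannot be told apart.

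Metallothioneins are small proteins rich in cysteine that bind zinc and copper. Mt1 and Mt2 are the stress members, produced in most tissues and, in the brain, mainly by astrocytes. They are induced by zinc through the metal-sensing factor MTF1, by glucocorticoids, and by interleukin 6 through STAT3. Mt3, also known as growth inhibitory factor, is produced mostly in the brain, in astrocytes and in neurons that hold zinc in their synaptic vesicles, and is known as a poor responder to the inducers of Mt1 and Mt2. Nox2, the product of Cybb, is the superoxide-making enzyme of phagocytes, active in the brain mainly in microglia.

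The 3 genes lie side by side on the plus strand of chromosome 8 (GRCm38), with the start of Mt3 at -26.5 kb and that of Mt2 at -6.42 kb relative to the start of Mt1. Mt3 (ENSMUSG00000031760) spans 94152607 to 94154146, Mt2 (ENSMUSG00000031762) spans 94172664 to 94173568, and Mt1 (ENSMUSG00000031765) spans 94179082 to 94180327. Each coding sequence is spliced from 3 exons. The coding sequences are printed from the GENCODE M21 models of GRCm38, without the stop codon, because the genes are close relatives that the tag counts had to tell apart. Capitals mark the cysteine codons (TGC and TGT), whose sulphurs hold the metal.
Mt1 (chr8:94179311-94180190): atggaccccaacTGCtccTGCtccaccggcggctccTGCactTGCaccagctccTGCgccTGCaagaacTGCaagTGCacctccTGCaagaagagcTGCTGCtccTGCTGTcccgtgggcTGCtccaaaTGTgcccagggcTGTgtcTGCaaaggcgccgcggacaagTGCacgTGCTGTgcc
Mt2 (chr8:94172848-94173424): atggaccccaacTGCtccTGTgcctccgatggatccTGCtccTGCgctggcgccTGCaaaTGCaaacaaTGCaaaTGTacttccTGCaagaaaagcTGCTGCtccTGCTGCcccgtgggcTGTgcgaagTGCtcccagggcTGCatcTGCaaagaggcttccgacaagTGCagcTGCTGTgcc
Mt3 (chr8:94152800-94154007): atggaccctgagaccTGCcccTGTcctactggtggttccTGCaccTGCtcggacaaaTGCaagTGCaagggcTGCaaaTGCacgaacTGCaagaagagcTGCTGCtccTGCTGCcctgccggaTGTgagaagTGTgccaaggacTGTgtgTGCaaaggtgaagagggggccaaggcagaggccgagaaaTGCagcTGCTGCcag
Each sequence held 20 cysteine codons. They made up 32.8% of the 61 codons of Mt1 and of Mt2, and 29.4% of the 68 codons of Mt3. Mt1 and Mt2 aligned without gaps and shared 145 of 183 bases (79.2%), whereas Mt3 shared 73.2% of aligned bases with Mt1 and 74.9% with Mt2, with 21 gapped bases in each alignment. The extra codons of Mt3 include an acidic stretch near its end that Mt1 and Mt2 lack. Over the last 300 bases of each transcript, where the tags arise, none of the 261 words of 40 bases of Mt1 or of Mt3 occurred in a transcript of another gene. For Mt2, 67 of 261 such words also occurred in Gm45774, an antisense transcript over the gene. Gm45774 had 30 counts in all 24 libraries together, against 80837 for Mt2, and the sources used here do not give the strand setting of the counting.

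The stretches before the gene starts are shown because MTF1 binds a short motif there, the metal response element. Its core was searched as TGCACNC and TGCGCNC, on both strands of the 250 bases before each RefSeq start (GRCm38.p6). Each line prints the plus strand, with the match in capitals.
Mt1 (chr8:94179056-94179082): ggtcccgctgTGCACACtggcgctcca
Mt2 (chr8:94172385-94172411): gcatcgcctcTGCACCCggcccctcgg
Mt2 (chr8:94172480-94172506): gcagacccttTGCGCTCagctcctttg
Mt2 (chr8:94172558-94172584): gggggagggcGTGTGCAggctctgtcc
In this window Mt1 held 1 match, starting at base -23 from the RefSeq start. Mt2 held 3, at -223, -128 and -50, the last on the minus strand, and no match was found in this window of Mt3. Among 32851 promoters of the same length, 21.4% held at least 1 match to either core and 415 promoters held 3 or more. The core of the antioxidant response element, TGANNNNGC, occurred 0 times for Mt1, 1 time for Mt2 and 2 times for Mt3, against 35.2% of all promoters with at least 1. Neither TTCNNNGAA, the core of STAT sites (7.02% of promoters), nor AGAACA, 1 arm of a glucocorticoid receptor site (16.1%), was found in the window of any of the 3 genes. A match is a match of letters only, and binding was not measured. Bases between the RefSeq start and the coding sequence, which begins at 94179311 for Mt1, were not searched. The counts hold for this window and are not the number of metal response elements of a gene.

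Libraries held 2340184 to 5256169 counts. Levels are CPM, counts relative to the library's total after scaling with TMM factors. The 3 members were among the 14380 genes that passed the filter on low counts, and the lowest count of any of them in any library was 465, for Mt3. Mt4, the skin-type metallothionein of the same cluster, had 4 counts over all 24 libraries and was not tested. A check of the genotype labels is limited. Tags of Cybb, the targeted gene, were more numerous in libraries labelled knockout, with 173 to 322 counts after LPS and 207 to 288 after PBS. Wild type libraries had 48 to 140 counts after LPS and 2 to 10 after PBS. In counts and in CPM every labelled knockout library stood above every wild type library, so Cybb tags set the labels apart. Tags at the 3′ end need not lie in the disrupted part of the gene, so they do not check the loss of Nox2. Directions between genotypes below follow the labels.

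Mt1 and Mt2 were among the most abundant transcripts of the hemisphere, and both stood higher after LPS in each genotype, in every library. Mt3 was less abundant and also stood higher after LPS, but by less. Between genotypes, Mt3 was lower in libraries labelled knockout after either injection, whereas the differences of Mt1 and Mt2 did not pass the test.

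Mt1 in mice labelled knockout had 963, 1022 and 1207 CPM after LPS (lowest, median and highest of 6), against 492, 506 and 563 CPM after PBS. In wild type mice Mt1 had 1048, 1192 and 1277 CPM after LPS, against 533, 555 and 632 CPM after PBS. In both genotypes all 6 LPS libraries lay above all 6 PBS libraries. The means were 1044 ± 94.4 CPM after LPS and 518 ± 26.9 CPM after PBS in labelled knockouts, and 1176 ± 81.6 and 565 ± 37.0 CPM in wild type mice (SD, n = 6 each). On the log2 scale of the edgeR fit, LPS minus PBS was 1.01 ± 0.05 in labelled knockouts and 1.06 ± 0.05 in wild type mice (SE), or 2.02-fold and 2.08-fold. Ranked by mean level among 14380 genes, Mt1 stood at rank 51 in labelled knockouts and 49 in wild type mice after LPS, and at 180 and 147 after PBS.

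Mt2 in mice labelled knockout had 1001, 1060.4 and 1139.9 CPM after LPS, against 569.9, 609.5 and 661 CPM after PBS. In wild type mice Mt2 had 1058, 1176 and 1403 CPM after LPS, against 615, 653 and 787 CPM after PBS. Again no PBS library reached the lowest LPS library of its genotype. The means were 1067 ± 49.8 CPM after LPS and 616 ± 35.9 CPM after PBS in labelled knockouts, and 1188 ± 115 and 671 ± 64.4 CPM in wild type mice (SD, n = 6 each). LPS minus PBS was 0.79 ± 0.06 in labelled knockouts and 0.82 ± 0.06 in wild type mice on the log2 scale (SE), or 1.73-fold and 1.77-fold. Mt2 was the more abundant of the pair after PBS and had the smaller fold difference after LPS.

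Mt3 in mice labelled knockout had 182, 220.3 and 250.1 CPM after LPS, against 139.7, 165 and 212 CPM after PBS. In wild type mice Mt3 had 331, 368 and 415 CPM after LPS, against 200.2, 243 and 260.4 CPM after PBS. In wild type mice the LPS and PBS libraries did not overlap. In labelled knockouts they did: 5 of 6 LPS libraries lay above all PBS libraries, and all 6 lay above the PBS median. The means were 219 ± 22.1 CPM after LPS and 167 ± 26.7 CPM after PBS in labelled knockouts, and 371 ± 32.2 and 235 ± 26.2 CPM in wild type mice (SD, n = 6 each). LPS minus PBS was 0.39 ± 0.08 in labelled knockouts and 0.67 ± 0.07 in wild type mice on the log2 scale (SE), or 1.31-fold and 1.59-fold. The 95% intervals of the LPS difference of Mt3 were 0.23 to 0.55 in labelled knockouts and 0.51 to 0.82 in wild type mice, beside 0.67 to 0.91 and 0.71 to 0.94 for Mt2, so those of Mt2 and Mt3 overlapped in wild type mice.

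**Figure D1:**
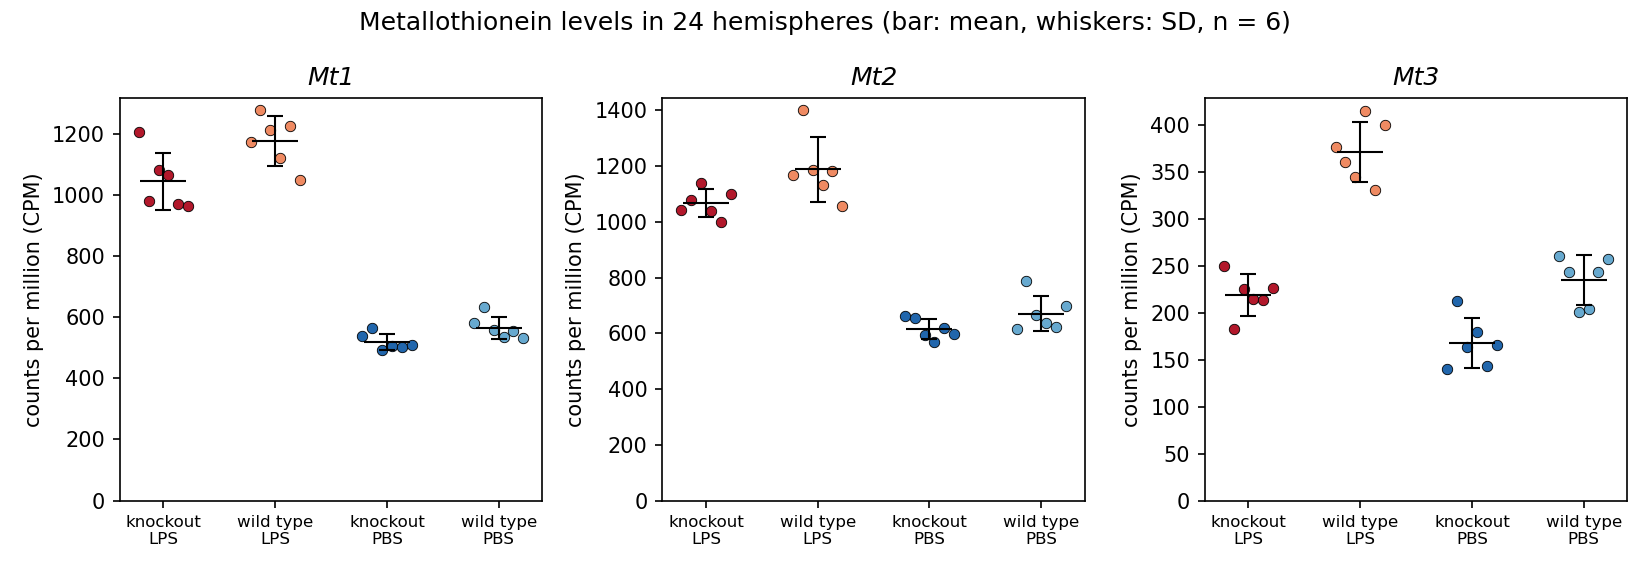
Levels of Mt1, Mt2 and Mt3 (y axis, CPM, each panel from 0) in the 4 groups (x axis; knockout is the label), with 1 point per mouse, a bar at the mean and whiskers for the SD of 6. For Mt1 and Mt2 all LPS points lie above the PBS points of the same genotype, and for Mt3 the labelled knockout points after LPS (182 to 250.1 CPM) lie below all wild type points after LPS (331 to 415 CPM).

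Counted over the members, 2 of 3 had all LPS libraries above all PBS libraries in labelled knockouts, where 4.24% of all genes tested did, and 3 of 3 did in wild type mice, where 5.88% of all genes did. As the genes were picked for this response, nothing is read from these counts. In sum, the 3 genes took 0.233% of a library's counts in labelled knockouts and 0.272% in wild type mice after LPS, and 0.130% and 0.146% after PBS. Mt3 made up 9.38 ± 0.69% of that sum in labelled knockouts and 13.6 ± 1.78% in wild type mice after LPS, and 12.8 ± 1.70% and 16.0 ± 1.65% after PBS (SD, n = 6).

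The written rule for choosing the genes used no genotype comparison, although the genes were chosen with earlier results of these data known. The genotype comparison was tested with edgeR's quasi-likelihood test, with Benjamini-Hochberg adjustment over 14380 genes. Its p-values do not account for that earlier knowledge. After PBS, Mt3 was lower in labelled knockouts by -0.48 ± 0.08 on the log2 scale (SE, 95% interval -0.64 to -0.32, edgeR adjusted p = 0.000258), a fold of 0.717. It was the 11th gene of 14380 by p. In 5 of the 6 labelled knockout libraries Mt3 lay below all wild type libraries, and all 6 lay below the wild type median. Mt1 and Mt2 did not pass the threshold after PBS. Their differences were -0.13 ± 0.05 (95% interval -0.24 to -0.01, edgeR adjusted p = 0.472) for Mt1 and -0.12 ± 0.06 (-0.24 to -0.01, adjusted p = 0.524) for Mt2. So 1 of 3 members was called lower, against 0.0904% of all genes tested called lower and 0.132% called in either direction. The ranges of labelled knockout and wild type libraries overlapped for all 3 genes after PBS. In all, 0.188% of genes had every labelled knockout library below every wild type library.

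After LPS the difference of Mt3 was -0.76 ± 0.07 on the log2 scale (SE, 95% interval -0.91 to -0.60, edgeR adjusted p = 1.05e-09), a fold of 0.592, and Mt3 was the 8th gene by p. All 6 labelled knockout libraries lay below all 6 wild type libraries, as was so for 0.389% of all genes. Mt1 differed by -0.17 ± 0.05 (95% interval -0.28 to -0.06, edgeR adjusted p = 0.106) and Mt2 by -0.16 ± 0.06 (-0.27 to -0.04, adjusted p = 0.197). Neither passed, and their ranges overlapped between genotypes, with 5 of 6 labelled knockout libraries below the wild type median for Mt1 and 6 of 6 for Mt2. Among the members, 1 of 3 was called lower, against 0.786% of all genes called lower and 1.05% called in either direction. The adjusted p of Mt1 was 0.032 without labelled knockout LPS replicate 1, whose Mt1 level (1207 CPM) was the highest of its group, and Mt1 did not pass without any other single library.

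Tested as single values, with the exact two-sided permutation test over all splits of 6 against 6 libraries, log2 CPM of Mt3 gave p = 0.00216 after LPS, the smallest p this design allows, and p = 0.00649 after PBS. The same exact test gave p = 0.0325 after LPS and 0.0281 after PBS for Mt1, and 0.0216 after LPS and 0.0801 after PBS for Mt2, with no adjustment for the other genes. All 6 differences were negative. The exact test was not run for other genes, so no share of all genes stands beside these values. By edgeR, 1639 of 14380 genes after LPS and 1256 after PBS had an unadjusted p below 0.05.

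Whether LPS moved the genes by unequal amounts in the genotypes was tested as the interaction, the LPS change in labelled knockouts minus that in wild type mice. It was -0.28 ± 0.11 for Mt3 (SE, 95% interval -0.50 to -0.05, edgeR adjusted p = 0.37), -0.04 ± 0.08 for Mt1 (-0.20 to 0.11, adjusted p = 0.897) and -0.03 ± 0.08 for Mt2 (-0.20 to 0.13, adjusted p = 0.935). None of the 3 members passed with edgeR or with DESeq2, and 1 of 3, Mt3, had an unadjusted p below 0.05 (edgeR, 0.0134). Of all genes tested 0.00695% passed, which is 1 gene, Cybb, and 1407 genes had an unadjusted p below 0.05. The smaller LPS difference of Mt3 in labelled knockouts was therefore not separable from the spread after adjustment. For Mt1 and Mt2 the intervals place any difference of the LPS changes at 0.20 or less in size on the log2 scale.

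**Figure D2:**
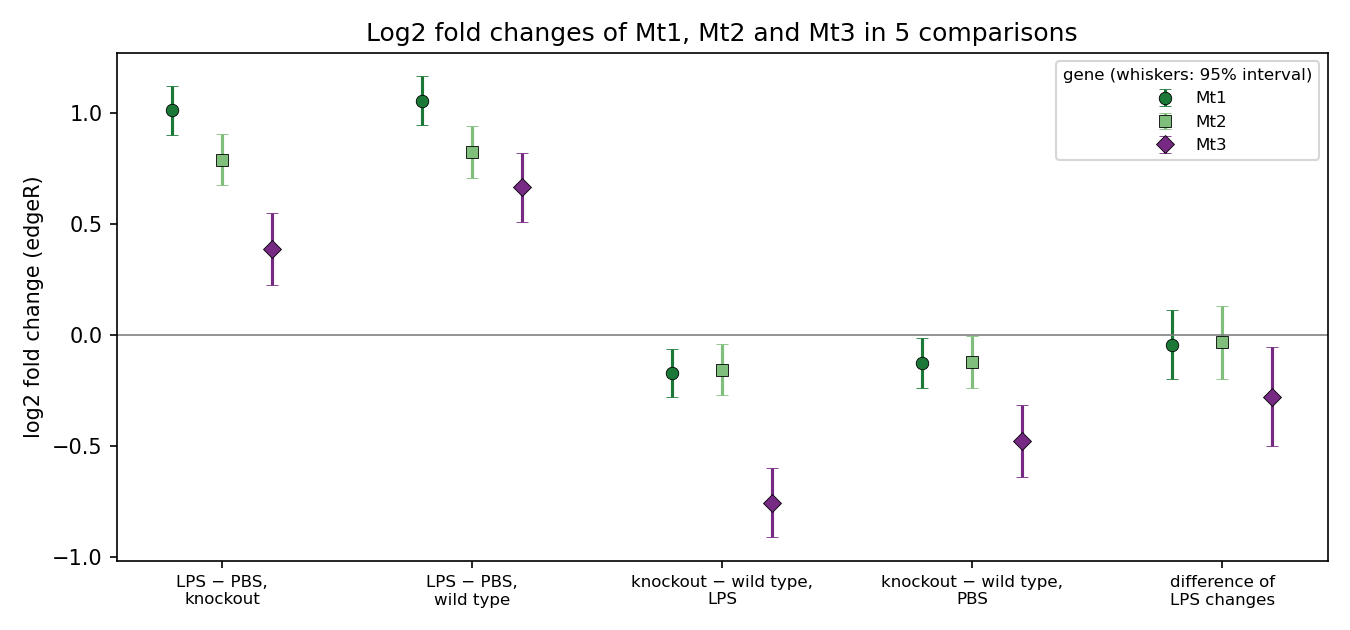
Log2 fold changes of Mt1, Mt2 and Mt3 from the edgeR fit (y axis) in 5 comparisons (x axis), with whiskers for the 95% interval. Mt3 lies furthest below 0 in both genotype comparisons (-0.76 after LPS and -0.48 after PBS), and the intervals of Mt1 and Mt2 in the difference of LPS changes include 0.

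Ratios of tag counts between members of the same library need no scaling across libraries. The ratio of Mt1 to Mt2 differed between genotypes by less than its standard error. It averaged 0.976 in labelled knockouts and 0.992 in wild type mice after LPS, and 0.840 and 0.843 after PBS (geometric means, n = 6). The genotype difference of its log2 value was -0.02 ± 0.06 after LPS and -0.01 ± 0.05 after PBS (SE, exact permutation test, adjusted p = 0.896 and 0.916 over 6 tests). LPS minus PBS of this log2 ratio was 0.22 in labelled knockouts and 0.23 in wild type mice.

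The ratio of Mt1 to Mt3 was higher in labelled knockouts. It averaged 4.78 in labelled knockouts and 3.17 in wild type mice after LPS, with ranges of 4.26 to 5.37 and 2.62 to 3.70 that did not overlap. After PBS it averaged 3.12 in labelled knockouts and 2.42 in wild type mice, with overlapping ranges of 2.65 to 3.85 and 2.07 to 2.78. The log2 differences were 0.59 ± 0.10 after LPS (SE, exact permutation test, adjusted p = 0.00649) and 0.37 ± 0.11 after PBS (adjusted p = 0.00866). Mt2 to Mt3 averaged 4.89 in labelled knockouts and 3.20 in wild type mice after LPS, a log2 difference of 0.61 ± 0.11 (exact permutation test, adjusted p = 0.00649). After PBS it averaged 3.71 in labelled knockouts and 2.86 in wild type mice, a log2 difference of 0.38 ± 0.13 (exact permutation test, adjusted p = 0.0292). That last call was lost, with adjusted p values of 0.0519 to 0.0584, when any 1 of 7 PBS libraries was left out: labelled knockout replicate 1, 3, 5 or 6 or wild type replicate 1, 5 or 6. The log2 difference was then 0.31 to 0.38.

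**Figure D3:**
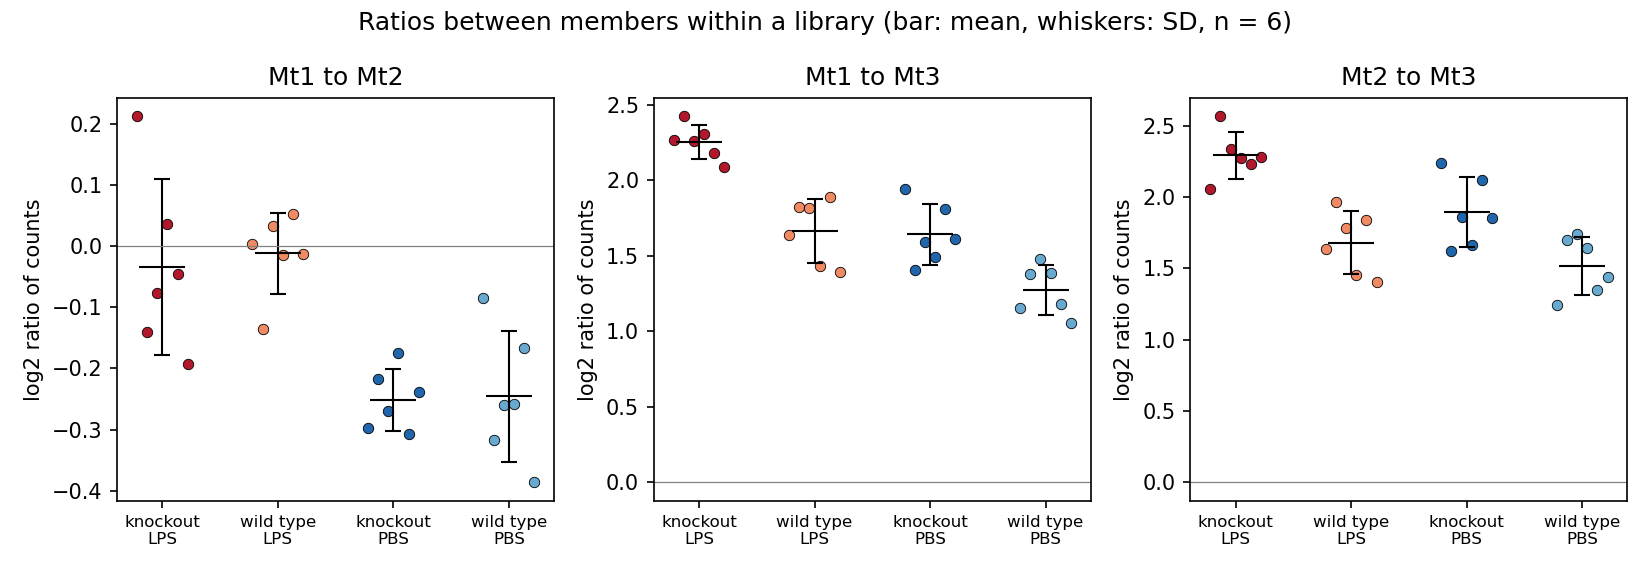
Log2 ratio of counts of 2 members in the same library (y axis) in the 4 groups (x axis; knockout is the label), with 1 point per mouse, a bar at the mean and whiskers for the SD of 6. In the Mt1 to Mt3 panel the labelled knockout points after LPS (mean 2.26) lie above all wild type points after LPS (mean 1.67), while the genotypes lie together in the Mt1 to Mt2 panel.

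Within groups, the members did not move together firmly enough to pass a test at 6 libraries. Of 12 relations (3 pairs in 4 groups, exact permutation of 720 pairings), none passed after adjustment, with a lowest adjusted p of 0.283 for Pearson's r and 0.2 for Spearman's rho. Mt1 and Mt2 had r = 0.88 and rho = 0.94 after LPS in wild type mice (exact p = 0.0236 and 0.0167, unadjusted), and r = 0.97 without the 2 libraries farthest from the median of Mt1. In labelled knockouts after LPS the same pair had r = -0.01 and rho = 0.09 (exact p = 0.988 and 0.919). Without the 2 farthest libraries of that group r was 0.58. After PBS Mt1 and Mt2 had r = 0.80 in labelled knockouts and 0.60 in wild type mice. Without the 2 farthest libraries of each group these values were -0.15 and -0.36. Differences of r between groups were not tested. Mt1 and Mt3 had r = -0.76 and rho = -0.77 after LPS in wild type mice (exact p = 0.0736 and 0.103, unadjusted), and r = 0.67 and rho = 0.37 in labelled knockouts (exact p = 0.163 and 0.497).

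Likeness of pattern was described over 7718 genes with a mean of at least 20 CPM, as the r of deviations from the group means over all 24 libraries. This measure ignores the LPS and genotype differences themselves, and the deviations share depth and dissection. Most like Mt1 were Rnh1 (0.77), which encodes the ribonuclease inhibitor, Etnppl (0.72), an enzyme of phosphoethanolamine breakdown found in astrocytes, Ik (0.66), Lrrc8a (0.66), a subunit of the volume-regulated anion channel, and Serinc3 (0.66). Mt2 came at rank 41 (0.56) and Mt3 at rank 1484 (0.22). Most like Mt3 were Mul1 (0.79), a ubiquitin ligase of the mitochondrial outer membrane, Pacsin1 (0.74) and Epn1 (0.72), which act in endocytosis, the kinase gene Nek9 (0.71) and the lipase gene Abhd4 (0.69). Mt1 stood at rank 1551 (0.22) and Mt2 at rank 5004 (-0.10) in that list. By this measure Mt1 and Mt2 lay nearer to each other than either lay to Mt3.

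Of 12 listed genes around the cluster 9 were tested, and all 9 stood nearer to 0 after LPS than any member in the same genotype. Their LPS differences ran between -0.20 and 0.30 on the log2 scale in labelled knockouts and between -0.10 and 0.31 in wild type mice. A predicted gene inside Ogfod1, not on the list and with 299 counts over all libraries, stood at 0.25 ± 0.26 in labelled knockouts and -0.47 ± 0.26 in wild type mice (edgeR adjusted p = 0.662 and 0.242, singled out after its values were seen). Of the 9 listed genes, 0 were called higher and 1 lower after LPS in labelled knockouts, the G protein gene Gnao1 (-0.16 ± 0.04, edgeR adjusted p = 0.00864). In wild type mice 1 was called higher and 0 lower, the nuclear pore gene Nup93, which starts 35.5 kb beyond the start of Mt1 (0.31 ± 0.09, edgeR adjusted p = 0.0162). Bbs2, a gene of the ciliary BBSome and the nearest tested gene on the Mt3 side, stood at 0.30 ± 0.15 in labelled knockouts (edgeR adjusted p = 0.227) and -0.02 ± 0.15 in wild type mice (adjusted p = 0.955). Between genotypes 0 of 9 neighbours were called after either injection by edgeR or DESeq2, and 0 had an unadjusted p below 0.05.

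**Figure D4:**
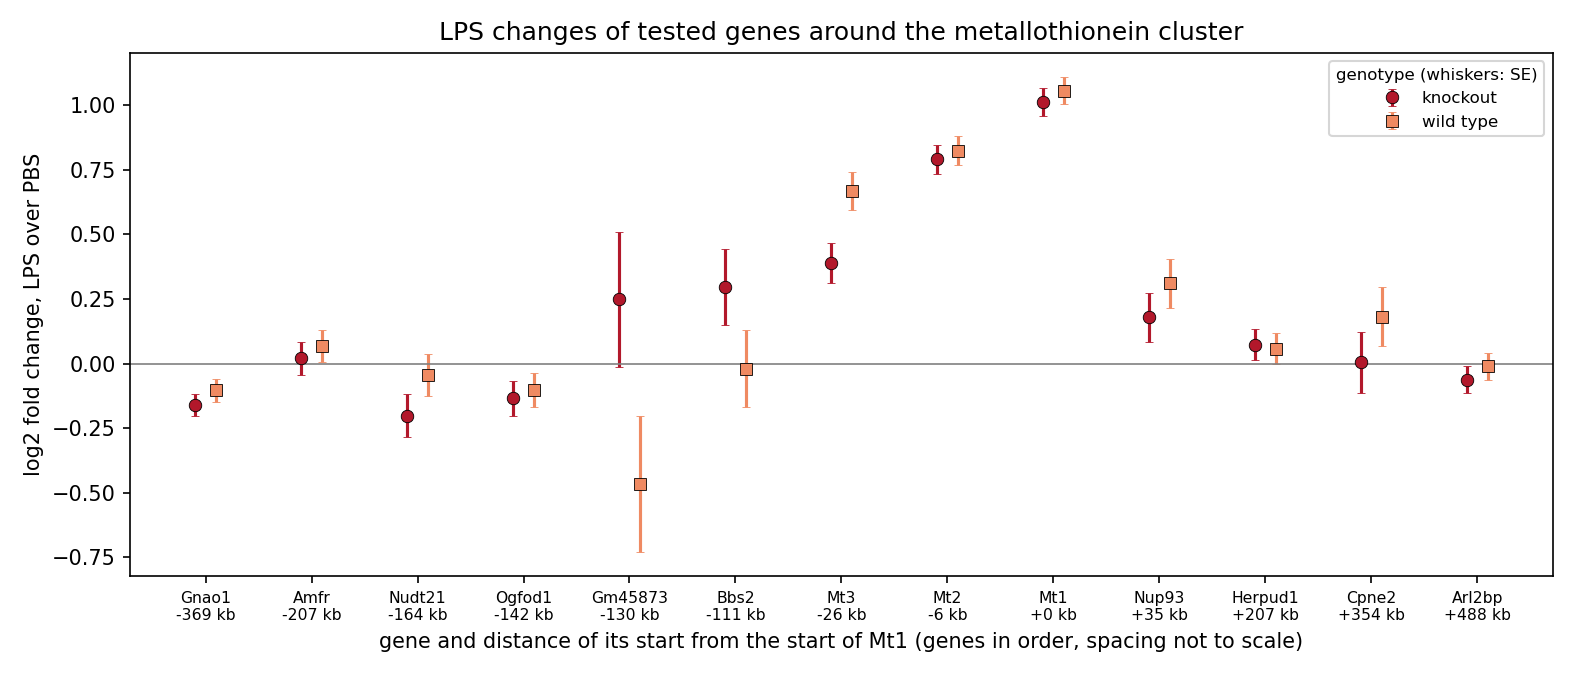
Log2 fold change, LPS over PBS (y axis), of the tested genes around the cluster, in chromosome order with the distance of each start from the start of Mt1 (x axis, spacing not to scale), with circles for labelled knockout, squares for wild type and whiskers for the SE. Mt1, Mt2 and Mt3 stand above their neighbours in both genotypes, with Mt1 at 1.01 in labelled knockouts and 1.06 in wild type mice.

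Genes that move zinc and copper were listed with earlier results of these data known, and are given as counts beside all genes tested, of which 7.05% were called higher and 3.82% lower after LPS in labelled knockouts, and 10.9% and 7.12% in wild type mice. Of the zinc exporters (Slc30 family), which remove zinc from the cytosol, 0 of 8 tested were called in labelled knockouts by edgeR or DESeq2, with 3 at an unadjusted p below 0.05. In wild type mice 1 of 8 was higher and 1 lower. The higher one was Slc30a1, the exporter of the plasma membrane and a known target of MTF1 like Mt1, at 0.25 ± 0.08 (edgeR adjusted p = 0.0286), against 0.18 ± 0.09 in labelled knockouts (adjusted p = 0.206). The lower one was Slc30a5 at -0.41 ± 0.13 (edgeR adjusted p = 0.0244).

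Of the zinc importers (Slc39 family), 2 of 11 were called higher and 0 lower in each genotype. They were Slc39a8, at 1.05 ± 0.24 in labelled knockouts and 1.40 ± 0.21 in wild type mice, and Slc39a1, at 0.36 ± 0.10 in labelled knockouts and 0.70 ± 0.09 in wild type mice. The importer Slc39a14, known for zinc uptake by the mouse liver in the acute phase, stood at 0.22 ± 0.15 and 0.23 ± 0.14 (edgeR adjusted p = 0.414 and 0.287) and was singled out after its values were seen. Of the copper genes, 3 of 15 were higher and 0 lower in labelled knockouts, and 5 were higher and 1 lower in wild type mice. Cp, which encodes the copper-carrying ferroxidase ceruloplasmin, stood at 2.13 ± 0.13 in labelled knockouts and 2.40 ± 0.12 in wild type mice, above Mt1 in both. Atox1, a copper chaperone, stood at 0.30 ± 0.08 and 0.44 ± 0.08, the copper transporter gene Slc31a2 was higher in labelled knockouts (0.72 ± 0.15, edgeR adjusted p = 0.000452) and stood at 0.12 ± 0.14 in wild type mice (adjusted p = 0.618), and the copper importer gene Slc31a1 was higher in wild type mice (0.55 ± 0.11, edgeR adjusted p = 0.00025) and stood at 0.31 ± 0.12 in labelled knockouts (adjusted p = 0.0835). Steap2, a metalloreductase gene, was lower in wild type mice (-0.38 ± 0.10, edgeR adjusted p = 0.00639). The median log2 change of these 3 lists was 0.05, -0.04 and 0.03 in labelled knockouts and 0.07, 0.06 and 0.12 in wild type mice, beside -0.0015 in labelled knockouts and -0.0088 in wild type mice for all genes tested.

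Among genes known to act upstream of Mt1 and Mt2, 3 of 8 were called higher and 1 lower after LPS in labelled knockouts, and 4 were higher and 0 lower in wild type mice. The zinc-sensing factor gene Mtf1 was not among them, at -0.12 ± 0.10 in labelled knockouts (edgeR adjusted p = 0.555) and -0.07 ± 0.10 in wild type mice (adjusted p = 0.695). Stat3 stood at 0.50 ± 0.08 in labelled knockouts and 0.71 ± 0.08 in wild type mice, Il6ra, the interleukin 6 receptor gene, at 1.09 ± 0.19 and 1.28 ± 0.18, and Nfe2l2, which encodes the oxidative stress factor NRF2, at 0.55 ± 0.14 and 0.77 ± 0.13. Nr3c1, the glucocorticoid receptor gene, was the 1 lower gene of the labelled knockouts (-0.24 ± 0.07, edgeR adjusted p = 0.0171) and stood at -0.15 ± 0.07 in wild type mice (adjusted p = 0.158).

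Known response genes of interleukin 6 with STAT3 and of glucocorticoids were counted too. The part of these genes and of the regulators in the LPS differences of the members was not tested. Of 14 genes of the interleukin 6 and STAT3 response, a list that shares Stat3 and Il6st with the regulators, 10 were higher and 0 lower in labelled knockouts and 12 were higher and 0 lower in wild type mice, with medians of 1.16 and 1.46. The leading ones were Lcn2 at 6.43 ± 0.33 in labelled knockouts and 7.25 ± 0.32 in wild type mice, and Serpina3n at 3.53 ± 0.23 and 4.40 ± 0.23. Of 16 glucocorticoid-induced genes, 4 were higher and 0 lower in labelled knockouts, and 4 were higher and 2 lower in wild type mice, with medians of 0.28 and -0.01. The higher ones included Fkbp5, at 0.83 ± 0.11 in labelled knockouts and 0.44 ± 0.10 in wild type mice, and Plin4, at 2.32 ± 0.33 and 1.65 ± 0.32. The 2 lower genes of wild type mice were Klf9 (-0.17 ± 0.05, edgeR adjusted p = 0.0061) and Errfi1 (-0.31 ± 0.11, adjusted p = 0.0464). In labelled knockouts Klf9 stood at -0.06 ± 0.05 and Errfi1 at -0.05 ± 0.12. Tsc22d3 stood at 0.03 ± 0.08 in labelled knockouts and -0.03 ± 0.08 in wild type mice (edgeR adjusted p = 0.888 and 0.849, singled out after its values were seen).

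**Figure D5:**
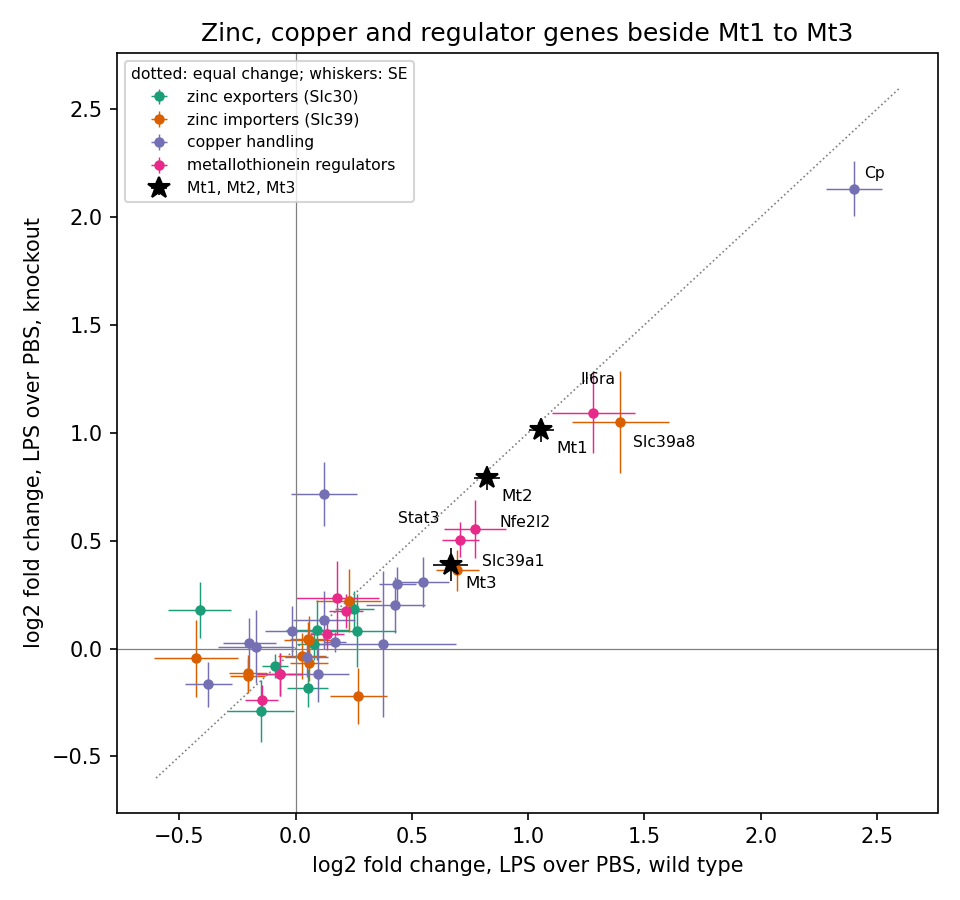
Log2 fold change, LPS over PBS, in labelled knockouts (y axis) against wild type mice (x axis) for the tested zinc, copper and regulator genes, with whiskers for the SE and a dotted line of equal change. The stars are Mt1, Mt2 and Mt3, and Mt3 lies below the line (0.39 in labelled knockouts and 0.67 in wild type mice). The 2 axes rest on separate sets of mice, and each point is 1 gene.

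Between genotypes these genes gave few calls. After LPS, the lists of zinc exporters, zinc importers, regulators and glucocorticoid-induced genes held 0 calls with edgeR and with DESeq2, with 1, 3, 2 and 3 genes at an unadjusted p below 0.05. Without wild type LPS replicates 1 and 2, edgeR called 2 importers lower, 1 regulator lower, and 1 glucocorticoid-induced gene higher and 1 lower, and 6 genes of the interleukin 6 list lower in place of 2. Cp was lower in labelled knockouts by -0.38 ± 0.10 (edgeR adjusted p = 0.0461), a call that DESeq2 and a scaling by library totals alone did not make, and Lrg1 (-0.64) and Il4ra (-0.63) were the 2 lower genes of the interleukin 6 list. After PBS, edgeR called 1 gene of all 6 lists, Cdkn1a of the glucocorticoid list, lower by -0.82, and DESeq2 called 1 higher and 1 lower, both of that list. Of the 16 glucocorticoid-induced genes 9 had an unadjusted p below 0.05 after PBS (edgeR), with a list median of -0.26. Per1, 1 of the 9, was higher (0.31). Of all 14380 genes 1256 had such a p, with a median of -7.5e-05. The interleukin 6 list after LPS had 8 of 14 and a median of -0.30, against 1639 of all genes and -0.0038. The lists were not tested as sets.

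Astrocytes, the main source of Mt1 and Mt2 in the brain and, with neurons, a source of Mt3, were present in all libraries. None of their 18 identity markers was at 0. The summed level of those markers was 7952 ± 269.7 CPM in labelled knockouts and 8091 ± 192 CPM in wild type mice after LPS, and 7813 ± 75.1 and 7771 ± 99.9 CPM after PBS (SD, n = 6). Between genotypes 2 of 18 were called lower after LPS, Slc1a3 (-0.17 ± 0.04, edgeR adjusted p = 0.0329) and S100b (-0.22 ± 0.06, adjusted p = 0.0282), and 0 of 18 after PBS with edgeR and DESeq2, with 4 at an unadjusted p below 0.05. Divided by that sum in each library, the log2 difference of Mt3 between labelled knockouts and wild type mice was -0.74 after LPS and -0.50 after PBS, a division chosen after seeing the data and given with no test. In the same terms Mt1 differed by -0.15 and -0.13, and Mt2 by -0.13 and -0.13.

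Reactive astrocyte markers summed to 499.8 ± 127 CPM in labelled knockouts and 650.4 ± 81.9 CPM in wild type mice after LPS, and to 134 ± 7.39 and 128 ± 6.88 CPM after PBS. After LPS the ranges overlapped (330.5 to 705.2 and 549.8 to 789.2 CPM). Of 10 tested, edgeR called 1 lower in labelled knockouts after LPS, Vim (-0.33 ± 0.09, edgeR adjusted p = 0.0427). DESeq2 and a scaling by library totals alone called 0 lower. Without wild type LPS replicates 1 and 2, edgeR called 3 lower. The part of these markers in the LPS differences of the members was not tested. Neuron markers summed to 7666 ± 222 CPM in labelled knockouts and 7563 ± 91.1 CPM in wild type mice after LPS, and 8478 ± 107 and 8471 ± 102 CPM after PBS. Between genotypes 0 of 12 neuron markers were called after either injection with edgeR and DESeq2. After each injection 2 had an unadjusted p below 0.05 (edgeR). Without wild type LPS replicates 1 and 2, edgeR called 1 higher after LPS.

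Markers of other cell types also differed between genotypes. Endothelial markers summed to 562 ± 22.3 CPM in labelled knockouts and 675 ± 36.8 CPM in wild type mice after LPS (SD, n = 6), with ranges that did not overlap. Of these 10 markers edgeR called 4 lower, Vwf (-0.70), Esam (-0.51), Cldn5 (-0.43) and Pecam1 (-0.36), and DESeq2 called 3 lower. After PBS the endothelial sums were 303 ± 20.9 and 319 ± 10.8 CPM, with 1 of 10 called lower, Ly6c1 (-0.41). Microglia markers summed to 804 ± 85.3 CPM in labelled knockouts and 961 ± 98.1 CPM in wild type mice after LPS, with 2 of 10 called lower, C1qa (-0.35) and Cx3cr1 (-0.41), and 5 lower without wild type LPS replicates 1 and 2. Choroid plexus markers summed to 1091 ± 42.3 CPM in labelled knockouts and 875 ± 157 CPM in wild type mice after LPS, with 1 of 10 called higher, Ttr (0.33). The part of these 3 cell types in the genotype difference of Mt3 was not tested.

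Markers of the olfactory bulb and nerve summed to 89.4 to 106 CPM in labelled knockouts and 89.1 to 167 CPM in wild type mice after LPS, and 112 to 144 and 131 to 209 CPM after PBS, with 3 of 6 called lower after LPS and 4 of 6 after PBS by edgeR, and 2 and 0 by DESeq2. Without wild type LPS replicates 1 and 2, 5 of 6 were called lower after LPS. Their part in the genotype difference of Mt3 was not tested. No marker of that list was at 0 in a whole group. Wild type LPS replicates 1 and 2 had 0 counts of the olfactory neuron gene S100a5, against 30 to 37 in the other 4. Their Mt3 levels were 376 and 360.4 CPM, and those of the other 4 ran between 331 and 415 CPM. Without these 2 libraries the genotype difference of Mt3 after LPS was -0.76 (edgeR adjusted p = 8.3e-09), that of Mt1 -0.14 (adjusted p = 0.167) and that of Mt2 -0.09 (adjusted p = 0.388). Wild type PBS replicate 4 also had 0 counts of S100a5, and its Mt3 level of 204.2 CPM was the second lowest of its group, above 5 of 6 labelled knockouts after PBS. Labelled knockout LPS replicate 4 held 6460 counts of Gh, the growth hormone gene of the pituitary, and its Mt3 level (214.9 CPM) lay inside its group.

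A gene known to differ between C57BL/6 substrains was also unequal between the genotypes. Gabra2, which encodes a GABA receptor subunit, averaged 46.7 CPM in labelled knockouts and 105 CPM in wild type mice after LPS, and 51.5 and 115 CPM after PBS. Its log2 differences were -1.18 ± 0.07 after LPS and -1.15 ± 0.07 after PBS (SE). Wdfy1, named like Gabra2 after its values were seen, averaged 17.6 CPM in labelled knockouts and 59.1 CPM in wild type mice after LPS, and 17.1 and 58.5 CPM after PBS. Gabra2 and Wdfy1 kept their difference under either injection, with interactions of -0.03 ± 0.10 and 0.03 ± 0.12 on the log2 scale (SE). For Mt3, the Nox2 genotype and any difference in genetic background between the groups cannot be told apart.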

How the data were processed

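Per the labels' protocols, RNA was isolated from left hemispheres and 100 ng entered the QuantSeq 3′ mRNA-Seq preparation. The authors deposited raw counts of tags per Ensembl gene. Reads were processed on build mm10 (GRCm38) with STAR 2.7.3a, bcl2fastq and Subread 2.0.0 (featureCounts), and DESeq2 1.26.0 under R 3.6.1 is also named, per the submitters' processing notes. Not given in the sources used here are the annotation release, the strand setting, and how multiply matching or duplicate reads were treated.

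From these counts, all 24 libraries entered 1 edgeR 4.0.16 fit (R 4.3.3) with a mean per group, TMM factors, filterByExpr with a minimum count of 10 (14380 genes) and 20 residual degrees of freedom, and p-values were adjusted by Benjamini-Hochberg within each comparison, with a threshold of 0.05. Levels are TMM-scaled CPM, and permutation tests used log2 CPM with a prior count of 2. Depth was 2340184 to 5256169 counts, and no use of molecular identifiers is stated. Each sample is a separate mouse, per the study's design. The fit was tested on simulated data before use. Alternatives were DESeq2 1.42.0, RLE factors, no filter, the compared groups alone, the replicate number as a block, each library left out, wild type LPS replicates 1 and 2 left out, and Gm42418 and mitochondrially encoded genes left out. Scaling by library totals alone and division by astrocyte markers were chosen after seeing the data.

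The members and the gene lists were chosen with earlier results of these data known. Named genes were the 3 members in full, up to 4 genes per list of zinc, copper, regulator, glucocorticoid and STAT3 genes with the smallest p for LPS in wild type, and the 5 genes most like Mt1 and like Mt3. Genes behind a count of 5 or fewer, Mtf1, Nr3c1, Slc39a14, Tsc22d3 and the genes that describe the libraries were named after their values were seen. Pairing of replicate numbers was not used, because it is not stated in the labels that they match animals. Lists for oligodendrocytes, microglia, endothelial cells, meninges, choroid plexus, ependyma, erythrocytes and pituitary were used only to describe the libraries.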

Additional observations from a re-analysis of the deposited data

Results flagged for a closer look

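The log2 ratio of Mt1 to Mt2 in wild type LPS replicate 2 stood at -0.14, apart from the other 5 libraries of its group, which lay between -0.014 and 0.052. Its gap to the nearest of them was a larger share of the group's range than Dixon's test allows for 6 values at the 95% level. The test was run on 24 sets of 6 values, the level of each member and the ratio of each pair in each group, and chance gives such a gap in about 1 of 20 sets. In that library Mt1 had 1277 CPM and Mt2 1403 CPM, both the highest of their group. It is also 1 of the 2 wild type LPS libraries with 0 counts of S100a5. Without both of those libraries the genotype difference of this log2 ratio after LPS was -0.05 ± 0.06 (SE, exact permutation test, adjusted p = 0.657).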

How the results depend on the processing

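The lower Mt3 of the libraries labelled knockout kept its direction and its call under every alternative run, at -0.79 to -0.71 after LPS and -0.56 to -0.43 after PBS with 1 library left out, and at -0.76 to -0.75 and -0.49 to -0.47 otherwise. The LPS differences of the 3 members kept their direction under every alternative. Deviations of libraries with the same replicate number were at most weakly related (24 pairs, r between -0.06 and 0.18 over 7718 genes, 8 above 0.1, own number best in 7 of 24). Whether the numbers mark anything shared by the mice is not stated in the labels and was not tested. With the replicate block, Mt1 after LPS passed (-0.17, edgeR adjusted p = 0.0311), and 39, 273 and 8 genes were called for genotype after PBS, genotype after LPS and the interaction, against 19, 151 and 1. No other call on a member changed under the block. In the same order no filter gave 88, 293 and 67 genes, and leaving out wild type LPS replicates 1 and 2 gave 36, 561 and 249. The compared groups alone gave 33 after PBS, and DESeq2 gave 25 for the interaction. With 1 library left out these counts were 13 to 32, 72 to 289 and 1 to 20, Mt1 after LPS was -0.21 to -0.15, Mt2 was -0.19 to -0.10 after LPS (-0.10 without wild type LPS replicate 2) and -0.15 to -0.07 after PBS (-0.07 without wild type PBS replicate 2), with no call, and the interaction of Mt2 was -0.085 to 0.020, and 0.029 without wild type LPS replicates 1 and 2. The genotype difference of the log2 ratio of Mt1 to Mt2 was then -0.071 to 0.0094 after LPS and -0.033 to 0.027 after PBS, and that of Mt2 to Mt3 after PBS 0.31 to 0.43. The causes were not tested. Of 39 counts of genes under settings that left out no single library, 28 stayed within 1.5 times. With counts of at least 465 a library, the 6 mice a group limit the precision for the members.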
